A study of Mus musculus with 24 samples.

Results

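The interferon-stimulated genes described here are a list of 57 gene symbols, taken as the rows of the deposited count table that carry them. All 57 were found among the 47480 rows of the table. A filter on low counts kept 45 of them among 14772 genes tested, and the remaining 12 are given below by their counts. The questions asked of these genes were whether Dexa lowered them and whether siCop1 shifted them.

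RNA was sequenced from mouse embryonic fibroblasts, connective tissue cells taken from embryos, labelled wild type in every group. The 24 libraries form 8 groups of 3, which combine an siRNA (siCTRL or siCop1), a compound (DMSO, the solvent, or KL001) and Dexa (without or with). The groups are siCTRL with DMSO, siCTRL with DMSO and Dexa, siCTRL with KL001, siCTRL with KL001 and Dexa, and the same 4 combinations with siCop1. Every library therefore received an siRNA, and no library without siRNA was compared here. Cop1, listed in the table under its older symbol Rfwd2, is a substrate receptor of a cullin-RING ubiquitin ligase, and KL001 is a compound known to stabilise cryptochromes, the circadian repressors. Dexa is the usual short form of dexamethasone, a synthetic glucocorticoid. The labels state neither doses nor times of exposure nor the siRNA sequences. The labels do not say whether the 3 replicates were separate cultures, so p-values measure the spread between these libraries, which may be technical.

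Type I interferons bind a receptor made of Ifnar1 and Ifnar2, and the kinases on it activate STAT factors, among them Stat2, which joins Irf9 in a complex that binds the interferon-stimulated response element of its target genes. The targets include sensors of viral RNA, effectors that block viral RNA or proteins, the ubiquitin-like protein Isg15 and its enzymes, and parts of antigen presentation. Many cells transcribe such genes weakly without added interferon. Ligand-bound glucocorticoid receptor is known to lower many inflammatory and interferon-driven transcripts.

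The response element core (GAAA, 2 bases of any kind, GAAA), searched on both strands with overlapping matches allowed, was present in the promoter of 22 of the 44 members that RefSeq's promoter table holds (50%). The same letters were in the promoters of 3.99% of 27025 genes in that table, each promoter covering 250 bases before to 50 after a start (GRCm38.p6). The glucocorticoid-type motif ACANNNTGT, a search added after the first results, was found in 2 of 44 members (4.55%) and 7.9% of genes. A match describes letters and is not evidence of binding. The windows below belong to members whose values recur in the results. Each is read 5′ to 3′ on the strand of the gene, with the matched letters of the response element core in capitals, so that TTTC, 2 bases, TTTC is the same core read on the other strand.
Ifit3, chr19:34583363-34583392, plus strand: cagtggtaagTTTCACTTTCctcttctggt
Ifit3, chr19:34583397-34583426, plus strand: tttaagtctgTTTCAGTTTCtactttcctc
Ifit3b, chr19:34607759-34607788, plus strand: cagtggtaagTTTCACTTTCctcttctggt
Ifit3b, chr19:34607793-34607822, plus strand: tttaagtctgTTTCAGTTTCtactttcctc
Ifit1, chr19:34640775-34640804, plus strand: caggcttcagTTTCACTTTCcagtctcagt
Ifit1, chr19:34640794-34640823, plus strand: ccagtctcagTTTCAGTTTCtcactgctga
Isg15, chr4:156200871-156200900, minus strand: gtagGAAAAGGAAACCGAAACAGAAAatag
Irgm1, chr11:48871428-48871457, minus strand: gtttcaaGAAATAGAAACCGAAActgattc
Stat2, chr10:128270266-128270295, plus strand: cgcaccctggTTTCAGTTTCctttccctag
B2m, chr2:122147538-122147567, plus strand: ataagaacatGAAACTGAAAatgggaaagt
The paired windows of Ifit3 and Ifit3b have the same letters. The matches in them begin 156 and 122 bases before the start of Ifit3 and 188 and 154 bases before that of Ifit3b. The Isg15 window holds 3 overlapping matches, the first beginning 78 bases before the start of Isg15.

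Library totals ran from 21409988 to 27875023 counts (median 25337292). Levels are in CPM, counts scaled to the library total on edgeR's TMM scale, and a gene is said to have risen or fallen where the adjusted p of edgeR's quasi-likelihood test (Benjamini-Hochberg over 14772 genes) was below 0.05. The targeted gene Rfwd2 was at 24.99 to 29.72 CPM with siCTRL and 4.33 to 5.79 with siCop1, and Fkbp5, a glucocorticoid target, rose with Dexa by between 3.54 and 4.33 on the log2 scale in the 4 settings. Summed fibroblast markers were at 35000 to 50800 CPM. Leukocyte markers (10 genes, 3 kept by the filter, none at 0 in all libraries) summed to 2.67 to 8.72 CPM with siCTRL and 4.62 to 15.7 with siCop1. Epithelial markers (5 genes, all kept) summed to 1.89 to 9.77 CPM with siCTRL and 4.52 to 17.1 with siCop1. Heart muscle markers (5 genes, 4 kept) summed to 16.3, 23.1 and 58.3 CPM in the siCTRL DMSO libraries and to 87.5, 79.9 and 20.1 CPM in replicate 2 of the other 3 siCTRL groups, against 0.695 to 2.64 with siCop1. Endothelial markers (5 genes, 3 kept) summed to 2.32 to 3.1 CPM in siCTRL DMSO and 1.28 to 1.84 with Dexa, to 1.97 to 2.59 and 1.12 to 1.32 in siCTRL KL001, to 1.23 to 1.53 and 0.729 to 1.23 in siCop1 DMSO, and to 1.44 to 2.16 and 0.837 to 0.992 in siCop1 KL001. In RNA from bulk cultures, fewer cells of a type and less RNA per cell cannot be told apart.

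The members covered a wide range of levels in these cultures. Per kilobase of exon, averaged over the 24 libraries, B2m, the light chain of MHC class I, stood highest at 523 CPM per kb. It was followed by Ifi27 at 43.6, Ifit2 at 16.7, Irf3 at 13.8 and Bst2 at 13.4 CPM per kb. The transcription factors Stat2, Irf1 and Irf9 lay at 9.21, 8.43 and 4.83 CPM per kb, the RNA sensor Ddx58 (RIG-I) at 4.29 and its relative Ifih1 (MDA5) at 0.871. Among textbook interferon targets, Isg15 was at 1.5 CPM per kb, Ifit1 at 0.901, Irf7 at 0.282, Usp18 at 0.157 and Oasl2 at 0.0941. The 12 members that the filter removed never had more than 10 counts in a library. They are Irf8, Zbp1, Oas1a, Oas2, Oas3, Mx1, Rsad2, Cmpk2, Psmb8, Psmb9, Slfn5 and Slfn8. Mx1, a GTPase that blocks influenza virus, had 0 to 7 counts per library, Rsad2 (viperin) 0 to 5 and the immunoproteasome subunit Psmb8 0 to 8. Nothing can be said about an effect of Dexa or siCop1 on these 12 at this depth.

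**Figure D1:**
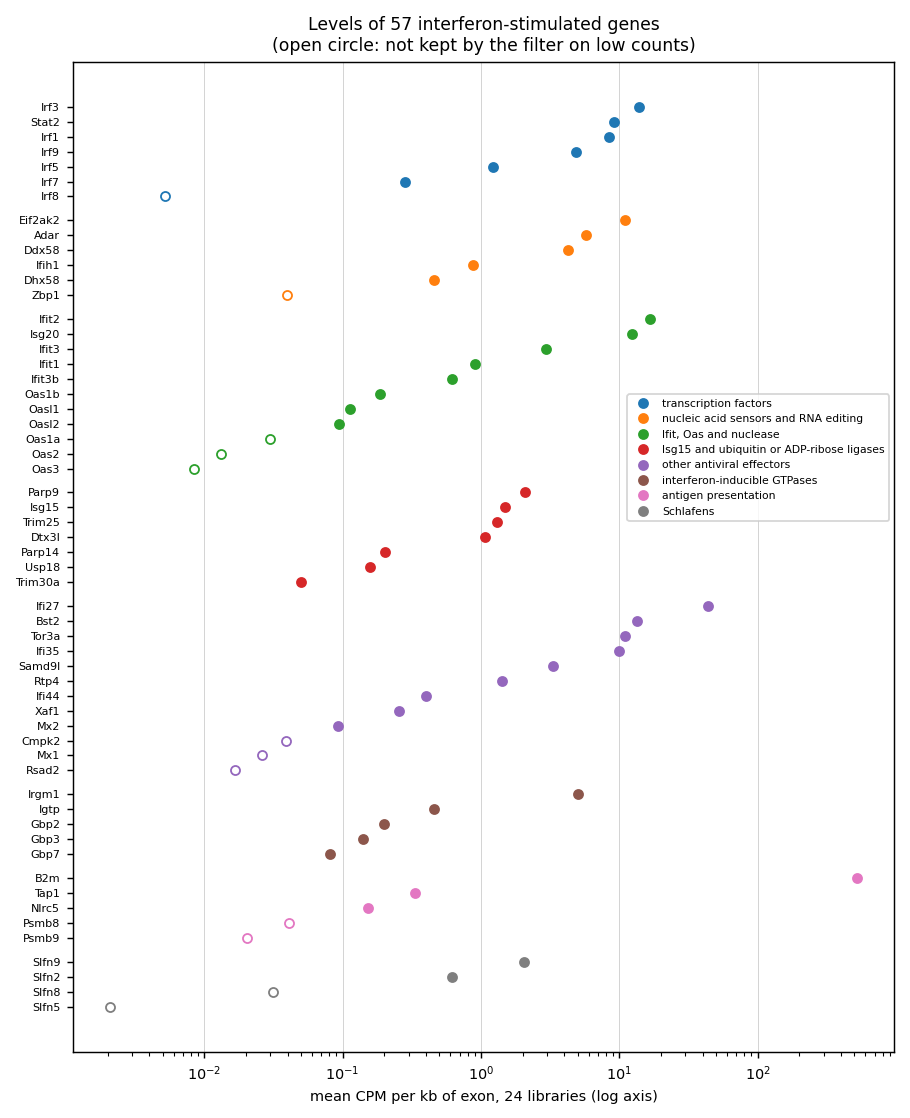
Mean level of each of the 57 members over the 24 libraries, in CPM per kilobase of exon on a log axis, grouped and coloured by role, with open circles for the 12 members that the filter on low counts removed. B2m is alone at 523 CPM per kb, and each open circle is a member with at most 10 counts in any library.

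The interferons themselves were at or near 0. Of 10 interferon genes listed, 8 had no count in any of the 24 libraries, Ifnb1 among them, and the 10 together never exceeded 0.12 CPM. A total of 0 counts allows up to 3 counts over those libraries, which covers counting error only.

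Dexa was associated with lower levels of a minority of the members and higher levels of a few. In siCTRL DMSO cells, 13 of the 45 members fell and 3 rose, where 14.1% of all tested genes fell and 12.7% rose. In siCTRL KL001 cells 17 fell and 3 rose, against 14.0% and 12.7% of all genes. In siCop1 DMSO cells 9 fell and 4 rose (all genes 11.6% and 12%), and in siCop1 KL001 cells 9 fell and 4 rose (12.4% and 12.1%). As shares of the 45 members, the falls were 28.9%, 37.8%, 20% and 20%, and the rises 6.67%, 6.67%, 8.89% and 8.89%. The median log2 change of the members was −0.16, −0.22, −0.15 and −0.09 in these 4 settings, while the median of all tested genes lay between −0.0102 and 0.00196. Fitted to the 6 libraries of the siCTRL DMSO comparison alone, the falls in that setting numbered 8. Libraries of replicate 2 with high heart muscle markers were also left out. This choice was made after seeing the data and kept the 3 siCTRL DMSO libraries. In that fit 10 fell in siCTRL DMSO and 13 in siCTRL KL001. In siCTRL DMSO it left the markers high in every library without Dexa and low in every library with Dexa. The count of 10 therefore cannot check the part of heart muscle markers in that setting, which was not tested. The median in siCop1 DMSO was −0.04 without the filter on low counts, and −0.09 and −0.07 without replicates 2 and 3 of siCop1 DMSO. Of the 3 endothelial markers tested, 1, 1, 1 and 2 fell with Dexa and none rose, and their part in the members' counts was not tested.

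Across the 4 settings, which share no library, 6 members fell in every one: Irf1, Ifih1, Ifit3, Ifit3b, Xaf1 and Irgm1. Another 4 fell in 3 settings (Ddx58, Eif2ak2, Slfn2 and Tor3a). Stat2, Isg20 and Ifi35 rose in every setting. In all, 21 members fell and 5 rose in at least 1 setting, none did both, and 19 passed in neither direction in any setting. The shares of all genes passing in several or in at least 1 setting are not given here, so these counts stand without that comparison. Taking all libraries together, the 12 with Dexa lay wholly below the 12 without for Irf1, Ifih1, Ifit3b and Irgm1 (2.81% of all tested genes), and wholly above for Stat2 and Isg20 (4.75%).

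**Figure D2:**
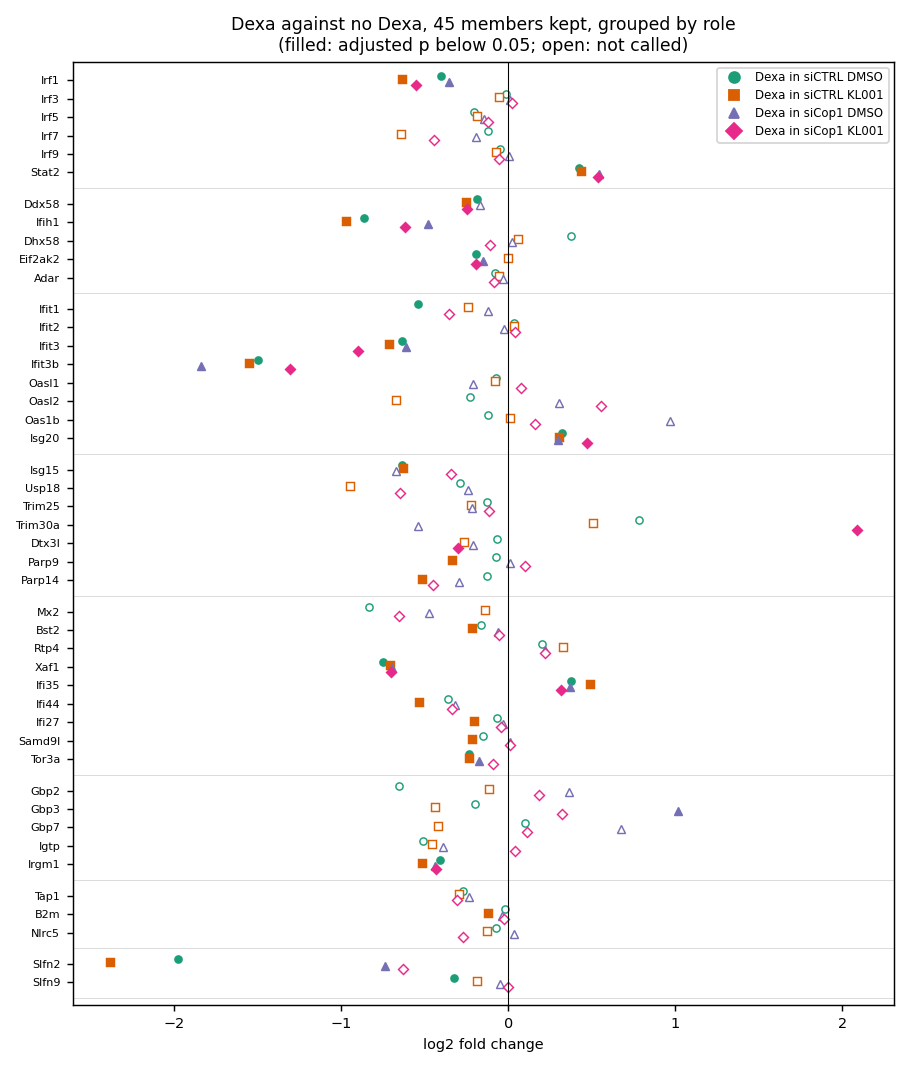
Log2 fold change with Dexa for the 45 members kept, grouped by role, with 1 symbol for each of the 4 settings, filled where the adjusted p was below 0.05 and open otherwise. Filled symbols on the left are spread over most roles, and Stat2, Isg20 and Ifi35 have 4 filled symbols each on the right.

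Among the 6 transcription factors tested, 1 rose and 1 fell in each setting, and they were the same genes throughout. Irf1 (chr11:53770014-53778374, GRCm38), a factor that switches on many interferon targets, measured 35.2, 37.1 and 38.6 CPM in the siCTRL DMSO libraries and 27.8, 27.5 and 28.5 with Dexa. Over all libraries it ran from 35.2 to 43.4 CPM without Dexa (median 39.4) and from 25.1 to 29.8 with it (median 27.9), so the groups did not overlap. Irf1 fell by 24.4% in siCTRL DMSO (log2 change −0.40, SE 0.0479, adjusted p 7.05e-08) and by 35.7%, 21.9% and 31.8% in the siCTRL KL001, siCop1 DMSO and siCop1 KL001 settings. Stat2 (chr10:128270559-128292849), the partner of Irf9 in the type I response, went the other way. Its libraries read 42.3, 46.4 and 44.2 CPM in siCTRL DMSO and 58.9, 60.1 and 59 with Dexa. Without Dexa its range over 12 libraries was 41.5 to 50.4 CPM (median 45.5), and with Dexa 58.9 to 73.2 (median 62.5). Stat2 rose by 33.9% in siCTRL DMSO (log2 0.42, SE 0.0463, adjusted p 1.61e-08), and by 35.5%, 45.8% and 45.2% in the other settings. Irf9, which binds DNA in the same complex, stayed within −0.07 to 0.01 on the log2 scale and passed nowhere. For Irf3, which relays RNA and DNA sensing, the 95% interval of the log2 change in siCTRL DMSO was −0.115 to 0.0832. Irf7 was low (around 1 CPM) with log2 changes of −0.12, −0.64, −0.19 and −0.45, none of which passed.

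Of the 5 sensors and RNA-binding enzymes tested, 3, 2, 2 and 3 fell in the 4 settings and none rose. Ifih1 (chr2:62595798-62646255, minus strand), which detects long double-stranded RNA, had the largest falls among them. It stood at 9.16, 10.4 and 10.3 CPM in siCTRL DMSO and at 4.94, 5.83 and 5.62 with Dexa. In siCop1 DMSO the values were 7.23, 7.58 and 8.06 without and 5.42, 5.17 and 5.77 with Dexa. The libraries with Dexa overlapped between the siRNAs, and all 3 libraries without Dexa were lower with siCop1 than any with siCTRL. Ifih1 fell by 45.1% and 49.1% in the siCTRL settings (log2 −0.86, SE 0.0823, and −0.97) and by 28.4% and 34.7% in the siCop1 settings (log2 −0.48 and −0.62). Ddx58 changed less, by −0.19, −0.25, −0.17 and −0.25, and the third of these did not pass (adjusted p 0.0612), while the first was lost in 4 of 6 fits leaving out 1 library. Eif2ak2, the kinase PKR that halts translation on double-stranded RNA, fell by 0.19, 0.15 and 0.19 on the log2 scale in siCTRL DMSO, siCop1 DMSO and siCop1 KL001. Eif2ak2 is named here after its values were seen, and leaving out 1 library lost the first of these calls in 2 and the second in 4 of 6 fits.

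The Ifit proteins bind viral RNA ends, the Oas family makes the activator of RNase L, and Isg20 is an exonuclease. Of the 8 such genes tested, 3, 2, 2 and 2 fell and 1 rose in each setting. Ifit3 (chr19:34583531-34588731) read 5.38, 5.47 and 4.61 CPM in siCTRL DMSO and 3.62, 3.25 and 3.07 with Dexa. In siCop1 KL001 cells it stood higher, at 8.73, 8.53 and 9.04 CPM, and fell to 5.13, 4.45 and 4.51. The log2 changes of Ifit3 were −0.64, −0.71, −0.61 and −0.90 (SE 0.0897, adjusted p 2.58e-09 for the last). Ifit3b (chr19:34607970-34613401), its neighbouring copy, was at 1.66, 1.85 and 2.19 CPM in siCTRL DMSO and 0.662, 0.877 and 0.478 with Dexa, from 9 to 55 counts per library over the series. All 12 libraries with Dexa (0.359 to 0.883 CPM, median 0.653) were below all 12 without (1.56 to 2.18, median 1.82). Ifit3b changed by −64.6%, −65.9%, −72% and −59.6%, with log2 changes of −1.50 (SE 0.245, adjusted p 1.47e-05), −1.55, −1.84 and −1.31. These 2 genes cannot be read as independent: 51.2% of the 50-base windows in the exons of Ifit3 also occur in Ifit3b, and how reads that fit both were counted is not given.

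Ifit1 (2.35, 3.75 and 3.46 CPM in siCTRL DMSO against 2.33, 2.1 and 2.07 with Dexa) passed in that setting alone, with a log2 change of −0.54 (SE 0.195, adjusted p 0.0374). That call was lost in 5 of 6 fits that left out 1 library. Its values in the other settings were −0.24, −0.12 and −0.36. Ifit2, the most abundant of the family at 57.5 to 68.1 CPM in siCTRL DMSO, passed in no setting, and neither did Oasl2. Isg20 measured 22.1, 19.1 and 20.6 CPM in siCTRL DMSO and 25.6, 25.7 and 26.1 with Dexa, and over all libraries 18.7 to 22.1 without and 23.1 to 28.8 with. It rose by 25.1%, 23.3%, 23.1% and 38.6%.

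Isg15, its protease and the ligases grouped with it gave few calls. Of 7 tested, 1, 3, 0 and 1 fell and 0, 0, 0 and 1 rose. Isg15 itself read 1.37, 1.26 and 1.75 CPM in siCTRL DMSO and 1.05, 0.877 and 0.877 with Dexa. It fell by 0.64 and 0.63 on the log2 scale in the siCTRL settings (adjusted p 0.0398 and 0.039), calls that 5 and 4 of 6 fits leaving out 1 library lost. The siCop1 values were −0.67 (adjusted p 0.0501) and −0.34. Usp18, the protease that removes Isg15, had log2 changes of −0.29, −0.95, −0.24 and −0.65 that did not pass at levels of 0.165 to 0.7 CPM. Parp14 and Parp9, ADP-ribosyltransferases, fell in siCTRL KL001 alone, by 0.51 (lost in all 6 fits leaving out 1 library) and 0.34 on the log2 scale, and Dtx3l, the ubiquitin ligase that pairs with Parp9, fell by 0.30 in siCop1 KL001 (lost in 4 of 6 such fits). Dtx3l and Parp9 overlap by 458 exonic bases on opposite strands, and the strand setting of the counting is not given. The 1 rise was Trim30a (log2 2.09 in siCop1 KL001), which had 1 to 12 counts per library and is named after its values were seen.

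Among the other 9 antiviral effectors tested, 2, 6, 2 and 1 fell and 1 rose in each setting. Xaf1, a proapoptotic zinc finger protein, was at 2.06, 1.47 and 1.31 CPM in siCTRL DMSO and 1.25, 0.789 and 0.837 with Dexa. It fell by 40.6%, 38.7%, 38.2% and 38.4% (log2 −0.75, −0.71, −0.69 and −0.70, with adjusted p of 0.0163, 0.0344, 0.0261 and 0.0382), and each of these calls was lost in 3 or 4 of the 6 fits that left out 1 library. The riser was Ifi35, which binds the partner protein Nmi. Its libraries were at 15.6, 16 and 17 CPM in siCTRL DMSO and 21.4, 21.3 and 20.4 with Dexa, and it rose by 29.7%, 40.2%, 28.9% and 24.5%. Another gene model, Gm11626, covers 16.8% of the exonic bases of Ifi35 on the opposite strand. Bst2 (tetherin), Samd9l, Ifi44 and Ifi27 fell in siCTRL KL001 alone, by 0.21, 0.21, 0.53 and 0.20 on the log2 scale, and fits leaving out 1 library lost these calls in 4, 2, 1 and 0 of 6. Whether these falls differ between the siRNAs or compounds is taken up with the interaction terms.

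The 5 interferon-inducible GTPases act on intracellular pathogens and their vacuoles. Irgm1 (chr11:48861968-48871683, minus strand) fell in all 4 settings. It read 31.6, 31.6 and 32.2 CPM in siCTRL DMSO and 23.1, 23.5 and 25.4 with Dexa, and over all libraries 30.5 to 37.5 without and 20.1 to 27.4 with. The falls were 24.5%, 30.1%, 26.2% and 26%. Igtp and Gbp2 passed in no setting. In siCTRL DMSO their log2 changes were −0.51 and −0.66, with 95% intervals of −1.02 to −0.00992 and −1.46 to 0.151, so sizeable changes in these low genes could not be resolved. Gbp3, named after its values were seen, rose in siCop1 DMSO by 1.02 (adjusted p 0.0415), with 0.71 to 1.57 leaving out 1 library, and 4 of those 6 fits, DESeq2 and the fit without the filter lost the call.

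Of the 3 antigen presentation genes tested, 0, 1, 0 and 0 fell, and of the 2 Schlafens 2, 1, 1 and 0. B2m, at 406 to 529 CPM over all libraries, fell only in siCTRL KL001, by 0.12 on the log2 scale (adjusted p 0.0151). That call was lost in 2 of 6 fits leaving out 1 library and in the fit on the groups compared. It was also lost without the libraries left out for heart muscle markers. Tap1, the peptide transporter, and Nlrc5, the activator of MHC class I genes, passed nowhere. Slfn2 (chr11:83065112-83070678), a regulator of quiescence in immune cells, had the largest fall of any member with at least 1 CPM on average in both siCTRL settings. It read 1.73, 2.48 and 1.79 CPM in siCTRL DMSO and 0.311, 0.482 and 0.717 with Dexa. In siCTRL KL001 the values were 1.67, 2.3 and 2.17 without and 0.439, 0.351 and 0.37 with. With siCTRL, Slfn2 fell by 74.6% in DMSO (log2 −1.98, SE 0.27, adjusted p 7.96e-07) and fell by 80.8% in KL001 (log2 −2.38, SE 0.284). With siCop1 it started lower, at 0.894, 1.36 and 1.45 CPM in DMSO and 1.05, 0.656 and 0.747 in KL001, and ended at 0.607, 0.887 and 0.706, and at 0.604, 0.426 and 0.558. The log2 changes there were −0.74 (adjusted p 0.0409), lost in 4 of 6 fits leaving out 1 library, and −0.63 (adjusted p 0.141). These values rest on 8 to 59 counts per library. Slfn9 fell in siCTRL DMSO alone, by 0.33 (adjusted p 0.00564). Of the 3 leukocyte markers tested, Csf1r fell with Dexa in 3 settings (log2 −0.52, −1.50, −0.88 and −1.25, the first not passing), while Cd68 (0.08, −0.10, 0.17 and −0.05) and Lyz2 (−0.40, −0.96, 0.63 and 0.85) did not pass. The part of such cells in the Slfn2 result was not tested.

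**Figure D3:**
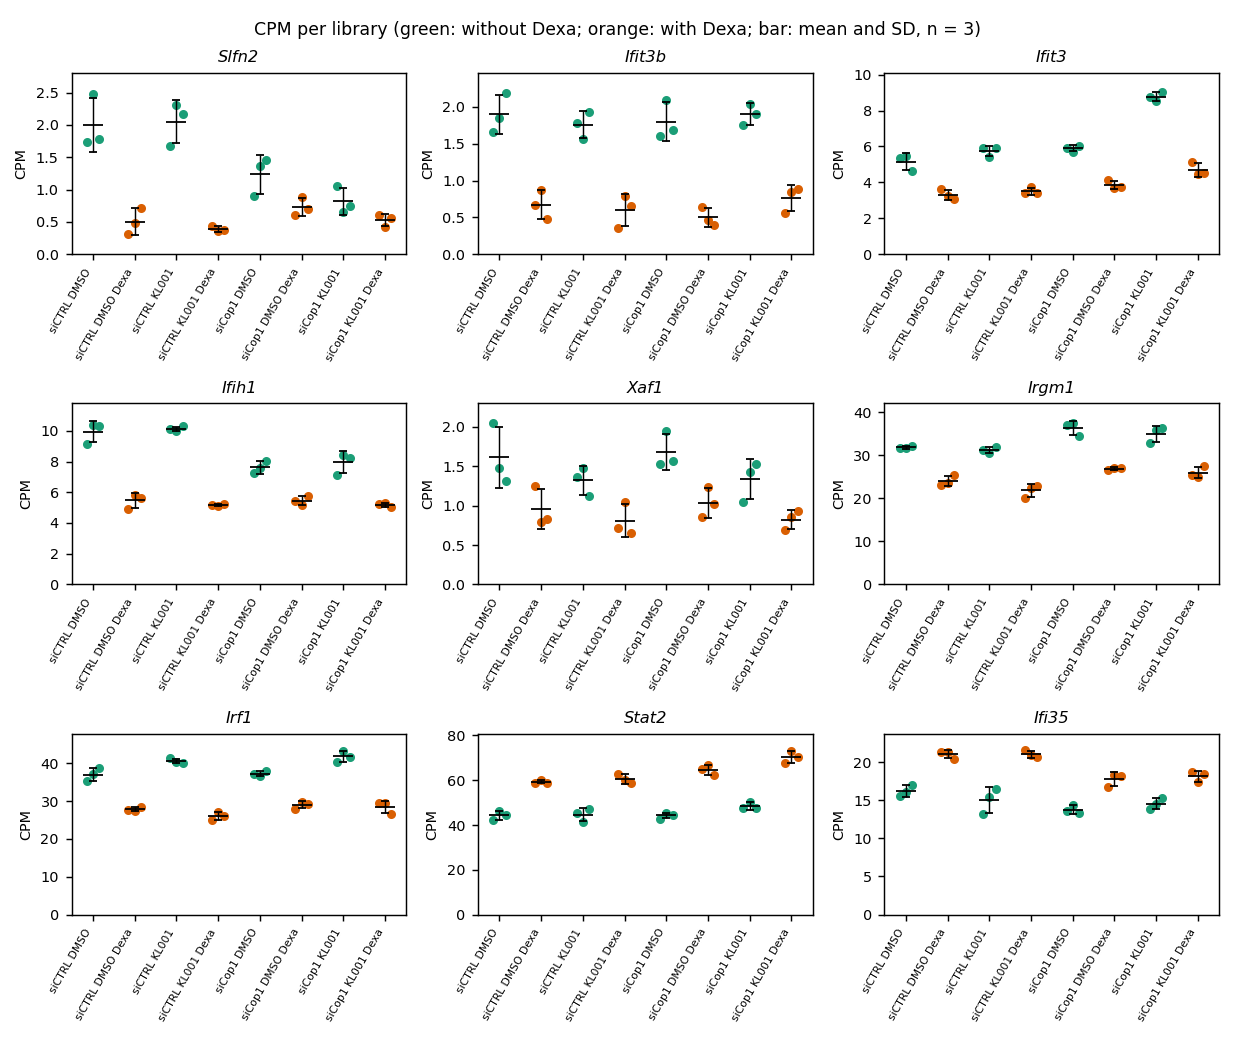
CPM of 9 members in each of the 24 libraries (points), with the mean and SD of the 3 libraries of a group as a bar, green without Dexa and orange with Dexa. Stat2 and Ifi35 are higher with Dexa in every setting, the other 7 are lower, and Slfn2 is highest in the 6 siCTRL libraries without Dexa.

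Falls were also counted by whether the promoter held the response element core. Of the 17 kept members with a match, 9, 8, 5 and 6 fell with Dexa in the 4 settings, and of the 18 with a promoter and no match 3, 5, 3 and 3 fell. The median log2 changes were −0.33 and −0.13 with and without a match in siCTRL DMSO, −0.26 and −0.22 in siCTRL KL001, −0.15 and −0.17 in siCop1 DMSO, and −0.06 and −0.10 in siCop1 KL001. These are descriptions without a test, and the share of all genes with or without the core that fell is not given here. Among the members that rose in every setting, Stat2 carried the core and Isg20 and Ifi35 did not. Among those that fell in every setting, Ifih1, Ifit3, Ifit3b and Irgm1 carried it, and Irf1 and Xaf1 did not. Slfn2, with the largest falls in the siCTRL settings, had no match either.

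With siCop1, members passed in both directions, as did tested genes at large. The 4 comparisons share libraries with the Dexa comparisons above, so the values are given side by side and not as independent. In DMSO without Dexa 1 member rose and 9 fell, where 12.8% and 16.6% of all tested genes did. In DMSO with Dexa 6 rose and 5 fell (all genes 14.4% and 16.7%), but the rises numbered 2 without the filter on low counts and 1 to 4 leaving out 1 library, with 1 without replicate 2 of siCop1 DMSO Dexa. In KL001 the counts were 9 and 5 (14.5% and 18.2%), with 4 rises without replicate 2 of siCop1 KL001, and in KL001 with Dexa 11 and 2 (13.7% and 16.3%). As shares of the 45 members, the rises were 2.22%, 13.3%, 20% and 24.4% in these 4 settings, and the falls 20%, 11.1%, 11.1% and 4.44%. The median log2 change of the members was −0.000255, 0.09, 0.00393 and 0.13, with the median of all genes between −0.00974 and 0.00142. Over the 4 settings 15 members rose and 10 fell at least once, none did both, and 20 passed in none. No share of all genes is given for these counts over settings. The heart muscle markers were high in all 3 siCTRL DMSO libraries and the leukocyte sum ranged higher with siCop1, with overlap. Of its 3 tested genes, Cd68 rose with siCop1 in all 4 settings (0.46 to 0.61 on the log2 scale) and Lyz2 in the 2 with Dexa (2.08 and 3.24, with 1.05 and 1.42 not passing without it), while Csf1r did not pass (0.13, −0.23, −0.59 and −0.34). Of the 3 endothelial markers, 1 fell in DMSO, and 1 fell and 1 rose in KL001. Of the 5 epithelial markers, 1 rose in DMSO with Dexa and none passed elsewhere. Their median log2 changes in the 4 settings were 0.34, 1.25, 0.57 and 0.77. The part of these marker sets in these counts was not tested. Without the siCTRL libraries high in heart muscle markers outside the DMSO group, the rises and falls were 4 and 5 in DMSO with Dexa, 6 and 5 in KL001, and 10 and 2 in KL001 with Dexa.

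**Figure D4:**
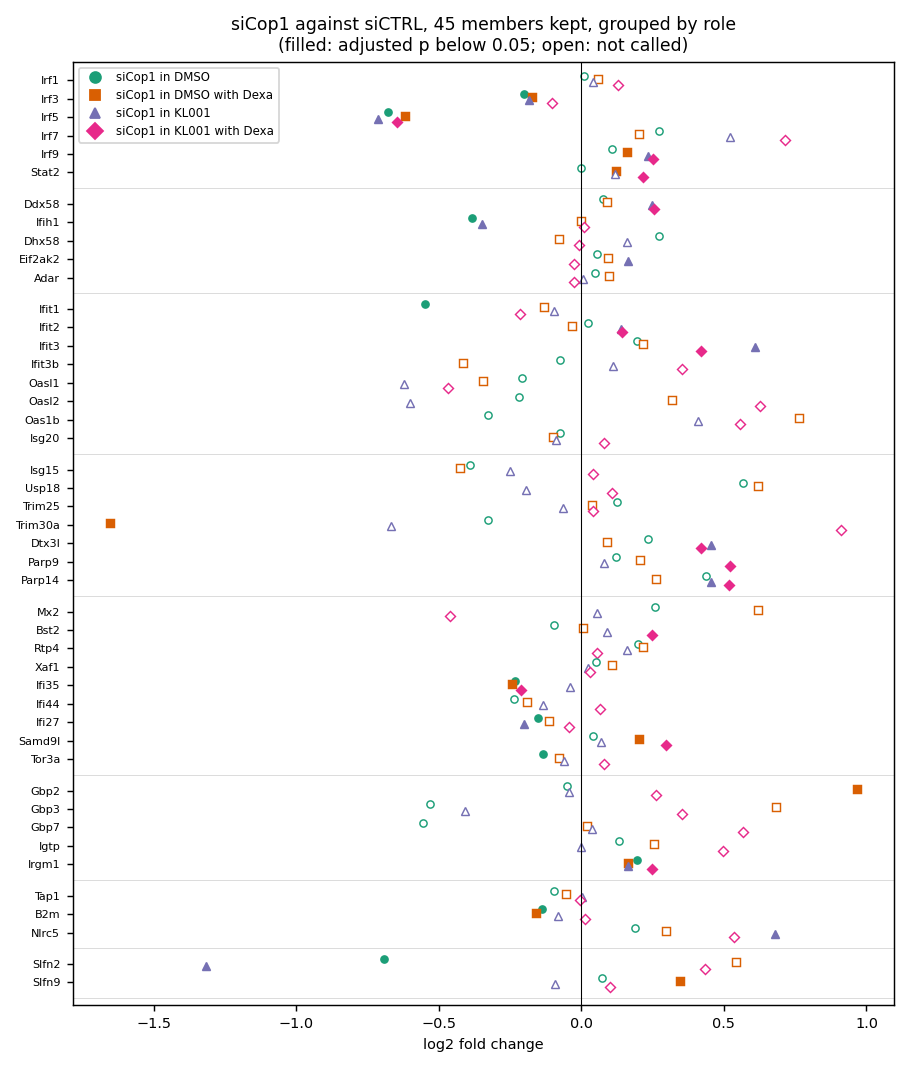
Log2 fold change of siCop1 against siCTRL for the 45 members kept, grouped by role, with 1 symbol for each of the 4 settings, filled where the adjusted p was below 0.05 and open otherwise. Irf5 has 4 filled symbols on the left and Irgm1 4 on the right, while Slfn2 and Ifih1 are filled on the left only in the settings without Dexa.

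Irf5 and Irgm1 passed in all 4 settings. Irf5 (chr6:29526625-29541871), a transcription factor downstream of Toll-like receptors, read 4.91, 4.63 and 5.36 CPM in siCTRL DMSO and 2.98, 3.58 and 2.74 with siCop1. Over all libraries it ran from 3.38 to 5.36 CPM with siCTRL (median 4.57) and 2.14 to 3.58 with siCop1 (median 2.76), overlapping slightly. It fell by 37.6%, 35%, 39.1% and 36.1% (log2 −0.68, SE 0.15, adjusted p 0.000769 for the first). Tnpo3 lies on the opposite strand over 14.1% of the exonic bases of Irf5, so reads of the 2 genes may not be told apart there. Irgm1 rose by 14.4%, 11.9%, 12.1% and 18.7%. The second of these calls was lost in 5 and the third in 2 of 6 fits leaving out 1 library. Without the filter on low counts, or without the libraries left out for heart muscle markers, the second was lost as well.

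The other transcription factors changed by less. Irf3 fell by 0.20, 0.17 and 0.18 on the log2 scale, and its change in KL001 with Dexa (−0.10) did not pass. It was the only member whose 12 siCop1 libraries (42.6 to 46.4 CPM) all lay below the 12 siCTRL libraries (46.9 to 54.2), as was so for 4.25% of all tested genes. No member had all siCop1 libraries above, where 2.71% of genes did. Irf9, at 21.6 to 26.8 CPM with siCTRL and 25.3 to 30.2 with siCop1, rose by 0.16 in DMSO with Dexa (lost in 4 of 6 fits leaving out 1 library) and by 0.23 and 0.25 in the KL001 settings, and did not pass in DMSO. Stat2 passed as higher with siCop1 in the settings with Dexa, by 0.12 (adjusted p 0.0363, lost in 5 of 6 fits leaving out 1 library) and 0.22 (adjusted p 0.000353). Its changes in the settings without Dexa were −0.000255 and 0.12, neither passing. No siCop1 by Dexa term passed for Stat2, so a difference between these settings was not shown.

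Slfn2 and Ifih1 fell with siCop1 in the settings without Dexa and did not pass beside Dexa. That difference is the subject of the interaction terms. For Slfn2 the log2 changes were −0.69 (adjusted p 0.0233, lost in 2 of 6 fits leaving out 1 library) in DMSO and −1.32 (SE 0.245, adjusted p 9.81e-05) in KL001, against 0.54 and 0.43 with Dexa, neither of which passed. For Ifih1 they were −0.38 (adjusted p 0.000291) and −0.35 (adjusted p 0.000685), against 0.00 and 0.01. Ifit1 fell in DMSO alone, by 0.55 (adjusted p 0.0313), lost in 4 of 6 fits leaving out 1 library.

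Several members passed as higher with siCop1 in the KL001 settings, and whether the siCop1 effect differed between KL001 and DMSO was not tested. Ifit3 rose by 52.4% in KL001 (log2 0.61, adjusted p 1.93e-06) and 33.8% in KL001 with Dexa (log2 0.42, adjusted p 0.00279). In the DMSO settings it stood 14.4% and 16.1% higher without passing. Ddx58 rose by 0.25 and 0.26 in the KL001 settings, and Ifit2 by 0.14 in each, which 3 and 5 of 6 fits leaving out 1 library lost. The ADP-ribosylation genes Dtx3l (0.45 and 0.42) and Parp14 (0.46 and 0.52, adjusted p 0.0458 and 0.0461) passed in the same 2 settings. Parp14 lost these calls in 5 of the 6 fits that left out 1 library. Parp9 passed in KL001 with Dexa only, where siCTRL read 7.82, 6.85 and 8.72 CPM and siCop1 11.8, 11.1 and 10.7 (log2 0.52, adjusted p 5.18e-05). Nlrc5 rose in KL001 by 0.68 (adjusted p 0.018, lost in 2 of 6 such fits), and Bst2 in KL001 with Dexa by 0.25. Samd9l rose in both Dexa settings by 0.20 (lost in 2 of 6 fits leaving out 1 library) and 0.30. Slfn9 rose by 0.35 in DMSO with Dexa, and Gbp2 by 0.97 there (adjusted p 0.0499, lost in 5 of 6 fits leaving out 1 library).

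Among the remaining falls, Ifi35 was lower with siCop1 by 0.23, 0.24 and 0.21 on the log2 scale in all settings but KL001 without Dexa. Ifi27 fell by 0.15 and 0.20 in the settings without Dexa, B2m by 0.14 and 0.16 in the DMSO settings, and Tor3a by 0.14 in DMSO. In DMSO without Dexa, leaving out 1 library lost the calls of Ifi27, B2m and Tor3a in 1, 2 and 1 of 6 fits. The low-count Trim30a, again named after its values were seen, fell by 1.65 in DMSO with Dexa (adjusted p 0.0193, lost in 3 of 6 fits leaving out 1 library). Ifi35 rose with Dexa and fell with siCop1, while Irgm1 fell with Dexa and rose with siCop1.

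KL001 changed few members. In siCTRL cells none rose and B2m fell (log2 −0.14, adjusted p 0.0255), where 3.22% of all genes rose and 3.51% fell. That call was lost in 3 of 6 fits leaving out 1 library. In siCTRL cells with Dexa, Slfn9 rose by 0.31 (adjusted p 0.0224) while B2m and Dtx3l fell by 0.24 and 0.34 (all genes 4.98% and 5.58%). Leaving out 1 library lost the Slfn9 call in 3 and the Dtx3l call in 5 of 6 fits. In siCop1 cells 3 rose and none fell (1.77% and 2.32%). These were Ifit3 by 0.57 (adjusted p 4.32e-05), Ifit2 by 0.18 (adjusted p 0.0491) and Irf1 by 0.17 (adjusted p 0.0263), and the last 2 were lost in 6 and 5 of 6 fits leaving out 1 library. In siCop1 cells with Dexa 3 rose and none fell (2.50% and 2.97%), namely Ifit2 by 0.24, Tor3a by 0.15 and the low-count Trim30a by 1.86, the last 2 each lost in 5 of 6 such fits. The libraries behind the largest of these, Ifit3, were at 5.92, 5.71 and 6.04 CPM in siCop1 DMSO and 8.73, 8.53 and 9.04 in siCop1 KL001, with no overlap.

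The interaction terms, which test whether the Dexa effect itself differed between siCop1 and siCTRL or between KL001 and DMSO, passed for none of the 45 members by edgeR. DESeq2 passed none of the 35, 28 and 45 members for which it gave an adjusted p in the 3 terms, and Slfn2 in KL001 was not among them. For siCop1 by Dexa in DMSO, 0.291% of all genes passed with a positive and 0.379% with a negative term. Without adjustment, 4 members were below a p of 0.05 (Gbp3, Ifih1, Slfn2 and Slfn9). In KL001, 0.264% and 0.298% of all genes passed, and 7 members were below 0.05 unadjusted (Eif2ak2, Ifi27, Ifih1, Parp9, Samd9l, Slfn2 and Tor3a). For KL001 by Dexa in siCTRL, 0.00% of genes passed in either direction, and 3 members were below 0.05 unadjusted (Eif2ak2, Irf1 and Parp9). These shares use the adjusted p and the member counts the unadjusted p, so they cannot be compared. The share of all genes below 0.05 unadjusted is not given here.

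The lowest adjusted p among these terms was that of Slfn2 in KL001. The fall with Dexa was smaller with siCop1 by 1.75 on the log2 scale (SE 0.431, 95% interval 0.868 to 2.63, adjusted p 0.0577). It passed at 0.0235 without the filter on low counts, at 0.0392 without replicate 1 of siCTRL KL001 and at 0.0407 without replicate 1 of siCop1 KL001, and reached 0.275 without the 3 replicate 2 libraries left out for heart muscle markers. In DMSO the Slfn2 term was 1.24 (SE 0.388, adjusted p 0.219, 0.093 to 0.504 over the alternatives). For Ifih1 the terms were 0.38 (SE 0.119, adjusted p 0.219) and 0.36 (SE 0.121, adjusted p 0.305). A difference of the Dexa effect between siRNAs was therefore not shown for either gene after correction.

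**Figure D5:**
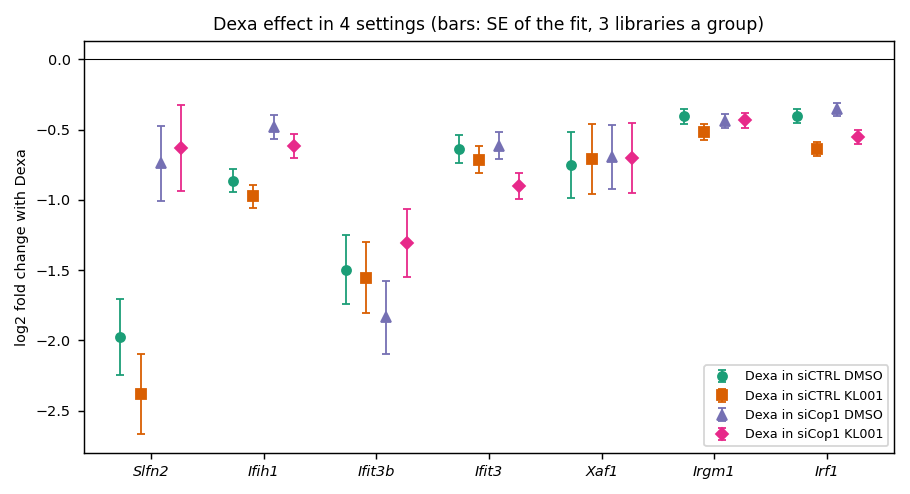
Log2 fold change with Dexa in the 4 settings for 7 members that fell, with the SE of the fit (3 libraries in each group). Slfn2 lies at −1.98 and −2.38 with siCTRL and −0.74 and −0.63 with siCop1, Ifih1 shows a smaller gap of the same kind, and the 4 settings of Irgm1 lie close together.

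Signalling genes around the members were counted in the same way, beside the shares of all genes given above for each comparison (11.6% to 14.1% falling and 12% to 12.7% rising with Dexa). Of 5 receptor subunits tested, 3, 4, 2 and 3 fell with Dexa and 1, 0, 1 and 1 rose. Ifnar1 read 116.1, 117.8 and 122.9 CPM in siCTRL DMSO and 99.87, 107.9 and 106.7 with Dexa, and fell by 0.18, 0.16, 0.14 and 0.14 on the log2 scale. Ifnar2 fell in the KL001 settings by 0.20 and 0.16, with −0.08 and −0.07 in the DMSO settings. Ifngr2, a subunit of the interferon gamma receptor named after its values were seen, fell by 0.42, 0.48, 0.37 and 0.38. Of 11 JAK-STAT genes, 2, 3, 1 and 2 fell and 1, 3, 3 and 2 rose. Socs1, an inhibitor of the JAK kinases, fell by 0.59, 0.65, 0.38 and 0.73, and Jak1 rose by 0.14, 0.14 and 0.17 in all settings but siCTRL DMSO.

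Of 10 adaptors and other genes of nucleic acid sensing, 2 fell in each setting and 1 rose in siCop1 KL001, near those shares. Tmem173 (STING), the adaptor of cytosolic DNA sensing, was at 55.85 to 59.16 CPM in siCTRL DMSO and 39.7 to 42.76 with Dexa, with no overlap. It fell by 0.49, 0.47, 0.45 and 0.40 on the log2 scale. Tlr3, an endosomal RNA sensor, did not pass in any comparison. With siCop1, where 16.3% to 18.2% of all genes fell and 12.8% to 14.5% rose, the receptors gave 2, 2, 2 and 1 falls and 1 rise in each setting, the JAK-STAT genes 3, 0, 1 and 0 falls and 1 rise in each, and the sensing genes 2, 3, 2 and 3 falls and 2, 2, 2 and 1 rises. Ifnar2 fell with siCop1 by 0.18, 0.17 and 0.16, and its change in KL001 with Dexa (−0.11) did not pass. No gene of these 3 lists passed with KL001, where 1.77% to 5.58% of all genes did in either direction.

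Reads that fit more than 1 gene, often a gene outside the member list, limit some of these values. Beside the Ifit3 pair, 57.6% of the 50-base windows of Oas1a occur in another gene, 14.6% of Slfn8, 12.7% of Gbp7, 11.8% of Igtp, 11.6% of Rtp4 and 11.5% of Slfn9. For Ifit1 the share was 7.13% and for Slfn2 4.27%, the latter with Slfn4. Opposite-strand overlap touched 16.8% of Adar (Chrnb2), 3.4% of Irf1 (Gm17334) and 2.56% of Irf3 (Bcl2l12).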

How the data were processed

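The authors deposited raw read counts per gene symbol for 24 libraries, whole numbers with 1 column per library, and 0 columns of per-sample values were left unused. Per the labels' protocols, stranded mRNA libraries (TruSeq) were read as single reads. The submitters' processing notes name STAR 2.4.5a, featureCounts from Subread 1.4.6-p3, DESeq2, Picard 1.126, bcl2fastq 1.8.4 and GRCm38/mm10. Neither names the strand or multi-mapping settings of the counting. A normalized table was not used.

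The test was the quasi-likelihood test of edgeR 4.0.16 in R 4.3.3 (robust, TMM scaling), with 1 mean for each of 8 groups over 24 libraries, after filterByExpr (minimum count 10, minimum total 15). P-values were adjusted over 14772 genes. The 12 simple effects and 3 interactions each set 3 libraries against 3, or differences of them. SEs come from unshrunken log2 changes and the F statistic, and intervals are 95% intervals. The common biological coefficient of variation was 3.71%. No replicates were alike within sampling noise (chi-square per degree of freedom 1.56 to 8.76). On data simulated for Dexa in siCTRL DMSO (14578 genes), 76%, 78%, 90% and 100% of changes of 1.25, 1.5, 2 and 4 times were recovered. The changed genes, 50 for each size, were drawn at random from all genes fitted. These shares therefore do not describe members near or below 1 CPM. Coordinates and exon lengths come from GENCODE vM21 (GRCm38), promoters from RefSeq (GRCm38.p6). Intervals and the floor of 3 counts cover counting error only where they rest on counts alone, and PCR copies were not told apart.

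The members, lists and tests were chosen with earlier results of these data known. Genes named with values are a set list of 20 members, and, among members with a mean of at least 1 CPM, up to 3 passing genes in each direction for each Dexa and siCop1 effect and up to 2 for each KL001 effect and interaction. Some results are not reported here. Other members named are given as part of a count, by role, or as chosen after their values were seen. Alternatives were DESeq2 1.42.0, RLE scaling, no filter, a fit on the groups compared, a replicate block, leaving out each library, and leaving out the 3 libraries outside siCTRL DMSO with heart muscle markers above 10 CPM, the last chosen after seeing the data.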

Additional observations from a re-analysis of the deposited data

How the results depend on the processing

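Of 120 calls of members in the comparisons above, 69 held in every alternative, 51 were lost in at least 1 and 0 changed direction. By setting, DESeq2 lost 21 of 118, the fit on the groups compared 16 of 117, no filter 18 of 120, RLE scaling 2 of 120, and leaving out replicate 2 of the 3 siCTRL groups other than siCTRL DMSO, for heart muscle markers above 10 CPM, 19 of 78. The siCTRL DMSO libraries, all 3 also above that level, were kept, since no other library of that group remains. For Dexa in siCTRL DMSO and KL001 in siCTRL, the markers then stayed above that level on the siCTRL DMSO side only. Calls kept or lost there cannot check the part of these markers. The Dexa calls of Irf1, Stat2, Ifih1, Ifit3, Ifit3b, Irgm1, Isg20 and Ifi35 in all 4 settings, those of Slfn2 with siCTRL, the siCop1 calls of Irf5 in all 4 settings and those of Ifit3 in both KL001 settings were never lost. The labels share replicate numbers, but all 3 pairs correlated above 0.1 in only 2 of 12 comparisons (−0.29 to 0.464 over 36 pairs), and 13 of 24 libraries were closest to their own number. With the replicate block 2 calls were lost, Gbp2 with siCop1 in DMSO with Dexa (0.96, adjusted p 0.057) and Ifit2 with KL001 in siCop1 (0.18, adjusted p 0.0552), and no other call changed.

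These counts of called members moved by over 1.5 times, and the cause was not tested. For siCop1 in DMSO with Dexa the 11 members became 7 without the filter and 6 to 9 leaving out 1 library (7 without replicate 1 or 2 of siCTRL DMSO Dexa or replicate 1 of siCop1 DMSO Dexa, 6 without its replicate 2), and the 6 rises among them 2 and 1 to 4. For siCop1 in KL001 the 14 became 9 to 14, with 9 without replicate 2 of siCop1 KL001, and the 9 rises among them 4 to 9. The 13 falls with Dexa in siCTRL DMSO became 8 in the fit on the groups compared. The 3 members with KL001 in siCop1 became 1 by DESeq2 and 1 to 2 leaving out 1 library, and in siCop1 with Dexa 1 without the filter and 1 to 2. The 1 in siCTRL became 0 in the fit on the groups compared and 0 to 2 leaving out 1 library, and the 3 in siCTRL with Dexa 1 to 3. The siCop1 by Dexa term in KL001 gave 1 member (Slfn2) without the filter and 0 to 1 leaving out 1 library. Dexa counts ran over 12 to 15, 15 to 18, 9 to 14 and 11 to 14 when 1 library was left out.

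Reversals concerned uncalled values, many of them near 0. Low-count members also reversed from larger values in the main fit. These were Usp18 (−0.29) and Oasl2 (−0.23) with Dexa in siCTRL DMSO, and Oasl2 (−0.22) with siCop1 in DMSO. The direction of these changes is not settled. Stat2 with siCop1 in DMSO gave 0.0106 with RLE scaling and with DESeq2, 0.00785 without the filter, 0.0103 in the fit on the groups compared, and −0.0337 to 0.0387 leaving out 1 library. Without replicate 2 of siCTRL DMSO Dexa, in the fit that left out libraries for heart muscle markers, the Dexa effects in siCTRL DMSO were 0.0127 for Irf3, 0.00323 for Irf9, 0.0739 for Oasl2 and 0.0245 for B2m. Leaving out 1 library there gave −0.0572 to 0.0237 for Irf3, −0.0733 to 0.00344 for Irf9, −0.554 to 0.072 for Oasl2, −0.581 to 0.234 for Usp18, −0.0369 to 0.0284 for B2m and −0.252 to 0.0666 for Nlrc5. For siCop1 in DMSO it gave −0.0263 to 0.051 for Irf1, −0.733 to 0.0763 for Oasl2, −0.35 to 0.206 for Gbp2 and −0.215 to 0.159 for Tap1. Depth limits genes below about 1 CPM, which rest on few counts.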
